A study of Bos taurus with 35 samples.

Results

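Among 24596 genes counted in Hanwoo cattle, 18 were at similar levels in omental (O), subcutaneous (S) and intramuscular (I) fat and scarce in muscle. They were chosen by their median level in each tissue, in CPM, counts relative to the library's total, scaled with TMM over all 34 libraries. Each member had a median of at least 10 CPM in O, S and I, at least 16 times the muscle median in each of the 3 fats, and less than a 2-fold range between the fat medians. Genes of a list measured by qRT-PCR were to be left out, and none of its 31 genes met the rule. The high level in fat, the low level in muscle and the closeness of the 3 fats were therefore the criteria of choice, and are given below as a description without a test.

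White fat is built around adipocytes, cells that take up fatty acids, make triglyceride and keep it in a large lipid droplet, and that release fatty acids again when other tissues need fuel. Omental fat lies inside the abdomen, subcutaneous fat under the skin, and intramuscular fat between the muscle fibres, where it is seen as marbling of the meat. A piece of muscle thus holds some adipocytes besides its fibres, and a gene used by adipocytes and not by fibres can be read in muscle RNA at a low level. None of the 18 members could be matched to a gene name here, so they are given by their Ensembl identifiers and their functions are not described. Of the genes that could be named, FASN encodes fatty acid synthase, which makes fatty acids in adipocytes, and TPM2 encodes a tropomyosin of the muscle thin filament.

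The libraries came from 9 cattle of 30 months, numbered here as replicates 1 to 9. Replicates 1, 4 and 7 were labelled female, 2, 5 and 8 castrated male, and 3, 6 and 9 male, while the study's methods speak of steers. There were 9 O, 9 S, 8 I and 8 muscle libraries, with no muscle library of replicate 7 and no I library of replicate 9 among those analysed here. Poly(A) RNA was sequenced, with 1 library for each tissue of an animal. The counts on genes were 3726376 to 7184022 per library. The TMM factors were 1.01 to 1.29 in fat and 0.52 to 0.75 in muscle.

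The labelled tissues were checked on the muscle gene TPM2. TPM2 was at 21907 to 51134 CPM in muscle, at 839 to 2023 CPM in I and at 70.7 to 262 CPM in O and S. The muscle gene was thus higher in every I library than in any library of the other fats. The sex labels of the muscle libraries were checked on 6 genes picked by the fat labels. Each was counted in every fat library labelled male or castrated male, and at most 1 time in any labelled female. Their summed counts in fat, 706 to 1027 against 0 to 3, follow from that choice and are no check of the fat labels. The genes were not chosen to tell castrated males from males. In muscle these genes summed to 428 to 903 counts in the male and castrated male libraries and to 1 in female replicate 1. The muscle library labelled female replicate 4 had 599 such counts, against its label. Values that the muscle medians set are therefore also given without it, and its own values are given under its label.

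Among the genes that reached the level minimum, the fold over muscle removed most. In all 3 fats 8432 genes reached 10 CPM, and 57 of them (0.676%) also reached 16 times muscle. Closeness of the fats then left 18 (0.213%). Of the 39 genes lost at that step, 38 were lowest in I and 1 in O, so that fat genes fell outside nearly always by a low I level. By contrast, 7128 of the 8432 genes lay less than 2-fold apart in the 3 fats, and in 4264 of these muscle was at or above the lowest fat.

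The thresholds cut through a continuous range. For the level, the lowest fat medians inside were 10.1 CPM (ENSBTAG00000021444) and 10.9 CPM (ENSBTAG00000019665), and the nearest genes outside had 8.11 and 7.23 CPM (ENSBTAG00000011330 and ENSBTAG00000044179). For the fold over muscle, ENSBTAG00000003880 (16.2) and ENSBTAG00000012237 (16.3) were just inside, and ENSBTAG00000010060 (15.4) and ENSBTAG00000014824 (14.6) just outside. For the range between fats, ENSBTAG00000024137 (1.99) and ENSBTAG00000007969 (1.98) were just inside, and ENSBTAG00000031188 (2.03) and ENSBTAG00000022396 (2.22) just outside.

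The members covered a wide range of read numbers in fat. The mean of the 3 fat medians ran from 14.5 to 3469 CPM (median 56.3), and 6 members were at 150 CPM or more. The tables hold no gene lengths, and a longer transcript gives more reads at the same number of molecules, so CPM rank the members by reads and not by transcripts. Summed over the 18 members, O held 5895 to 13066 CPM (median 7303), S 6243 to 11936 (median 7298), I 3642 to 9094 (median 4530) and muscle 68.2 to 295 (median 185.6).

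In fat, the largest part of that sum came from 1 gene. It was not always most of the sum, as with 1648 of 4254 CPM in the I library of replicate 7. ENSBTAG00000037526 was at 3085 to 7391 CPM in O (median 4332), 2848 to 7375 CPM in S (median 3772) and 1648 to 6513 CPM in I (median 2302). In muscle it was at 81.1 CPM in replicate 1, 124.5 in replicate 2, 21.5 in replicate 3, 15.8 in replicate 4, 142.1 in replicate 5, 47.7 in replicate 6, 74.8 in replicate 8 and 10.98 in replicate 9. Its lowest fat library was 11.6 times its highest muscle library. In bulk tissue, a lower level from fewer cells of a type and from less RNA per cell cannot be told apart, here and for all values below.

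ENSBTAG00000007969 was the next member by reads. It was at 811 to 2875 CPM in O (median 1141), 830 to 1606 CPM in S (median 1210), 251 to 985 CPM in I (median 612) and 3.16 to 42.4 CPM in muscle (median 14.9). This gene was higher in O than in I, and higher in S than in I, in all 8 animals with both tissues. ENSBTAG00000000442 was at 433 to 1377 CPM in O (median 699.8), 709 to 1446 CPM in S (median 1005), 197 to 762 CPM in I (median 533) and 7.73 to 48.8 CPM in muscle (median 19.4). It was higher in O than in S in 1 of 9 animals only.

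ENSBTAG00000012237 differed from those 3 in its order of tissues. It was at 259 to 1150 CPM in O (median 401), 261 to 527 CPM in S (median 402) and 348 to 915 CPM in I (median 434), the only member with its highest median in I. With 17.8 to 101 CPM (median 24.7) it was also the member with the largest share of its fat level in muscle, 5.99% at the medians. Without replicate 4 this share was 6.16%, below the 6.90% of ENSBTAG00000003880. ENSBTAG00000002714, the fifth member by reads, was at 195 to 506 CPM in O (median 330.5), 230.5 to 416.5 CPM in S (median 335), 76.5 to 293.5 CPM in I (median 189) and 3.96 to 15.8 CPM in muscle (median 11.3). Like ENSBTAG00000007969, it was lower in I than in O and S in all 8 animals.

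The remaining 13 members lay lower in fat. ENSBTAG00000003880 had medians of 258 CPM in O, 209.96 in S, 186 in I and 11.5 in muscle. Both ENSBTAG00000011779 and ENSBTAG00000024137 were between 75.1 and 159 CPM at each fat median, and the other 10 were between 10.1 and 62.7 CPM. The plot of levels by library shows all of them.

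**Figure D1:**
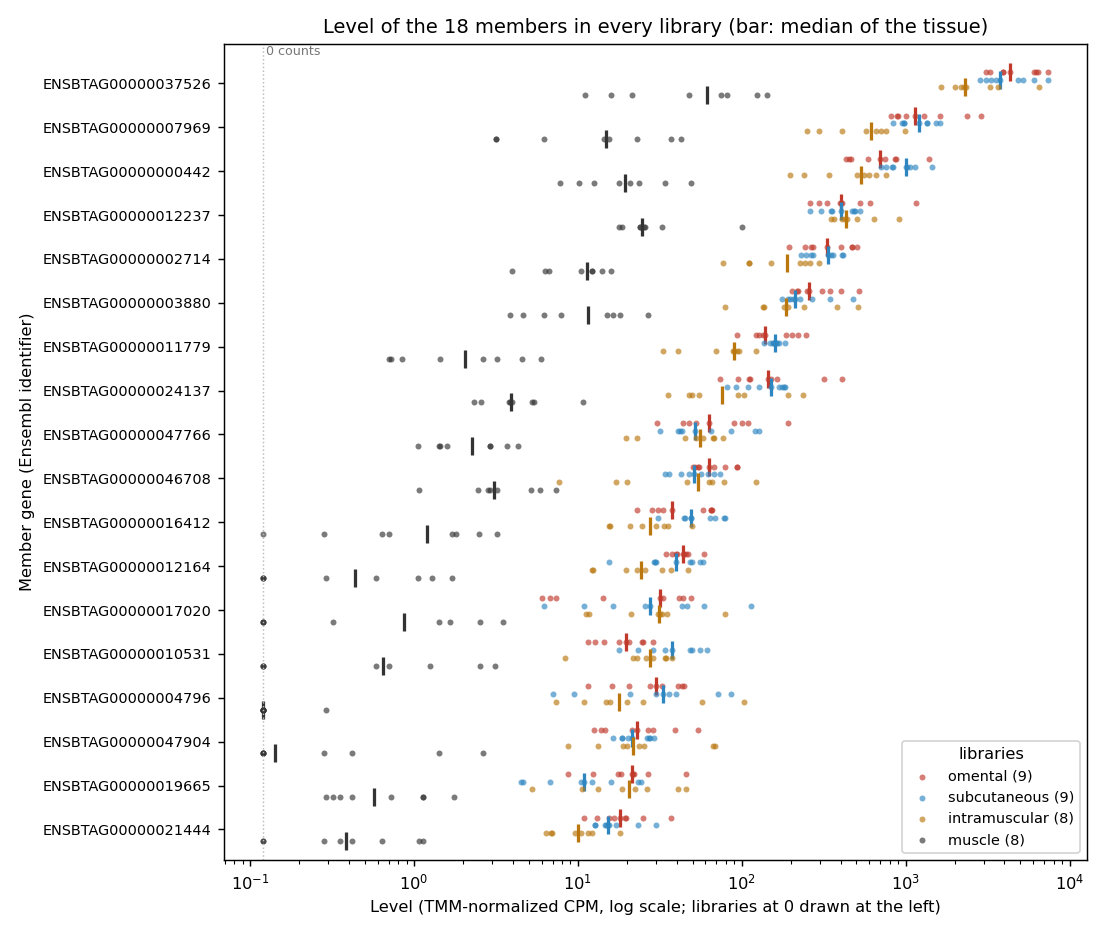
TMM-scaled CPM (x axis, log scale) of the 18 members (y axis, highest mean fat level on top) in every library, with a point per library coloured by tissue and a bar at each tissue's median; libraries with 0 counts are drawn at the left edge. In each row the 8 muscle points lie to the left of all 26 fat points, closest in ENSBTAG00000046708, where the lowest fat library was 1.05 times the highest muscle library.

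In all 18 members every fat library was above every muscle library, as in 8.69% of the 8432 genes. The rule chose for this difference, so the count is no support for it. The gap varied: the lowest fat library was 1.05 to 24.1 times the highest muscle library (median 4.28). At the small end, ENSBTAG00000046708 was at 7.71 CPM in its lowest I library and at 7.37 CPM in its highest muscle library, and ENSBTAG00000017020 had a gap of 1.74 times. At the other end stood ENSBTAG00000004796, with 40 to 704 counts in each fat library and a single count in the 8 muscle libraries together.

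At the medians, the lowest fat was 16.2 to 150 times muscle over the 17 members with a muscle median above 0 (median 26.2). Without the muscle library labelled female replicate 4 it was 12.4 to 83.6 times (median 19.6), and 5 members then fell under 16 times, ENSBTAG00000003880 (12.4), ENSBTAG00000019665 (15.1), ENSBTAG00000002714 (15.5), ENSBTAG00000012237 (15.8) and ENSBTAG00000046708 (15.9). The upper end of this range rests on few reads. ENSBTAG00000047904, with the value of 150, which was 75.2 without replicate 4, had 0 counts in 4 muscle libraries and 16 counts in the 8 together. Summed over the muscle libraries this gene was at 2.90% of its mean fat level (95% exact Poisson interval 1.66 to 4.71%), in place of 0.643% at the median. For ENSBTAG00000004796 the single count gave 0.148% (95% exact Poisson interval 0.00374 to 0.823%). These intervals cover counting error only.

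In all, 7 members had 0 counts in at least 1 muscle library, and 11 were counted in every one. A count of 0 in a muscle library allows a level of up to 0.849 to 1.25 CPM there, taking 3 counts as the limit. For the 10 members at 10.1 to 62.7 CPM in fat, a muscle library could therefore hold more than 1% of the fat level and show no read. The 6 members at 150 CPM or more had 251 to 1637 counts over the 8 muscle libraries and 9 to 487 in a single one, with fewer than 20 in 7 of 48 values. Percentages in single muscle libraries are thus limited by counting for the lowest of these values too.

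Within the limit of 2-fold, I was most often the lowest of the 3 fats. Of the 18 members, 11 had their lowest median in I, 5 in S and 2 in O, whereas 9 were highest in O, 8 in S and 1 in I. Over members, the O median was 0.721 to 1.92 times the I median (median 1.38), the S median 0.533 to 1.99 times the I median (median 1.58), and the O median 0.525 to 1.97 times the S median (median 1.04). Because the rule capped all of these ranges at 2-fold, their size is a product of the choice. The level of TPM2 was higher in all I libraries than in O and S, a difference between tissues, and its part in the lower levels in I was not tested.

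The order held animal by animal in a minority of the members. In O, 5 members were higher than in I in all 8 animals (15.3% of the 8432 genes), and 5 were higher in S than in I in all 8 (13.7%). Both sets held ENSBTAG00000007969, ENSBTAG00000002714, ENSBTAG00000011779 and ENSBTAG00000016412. No member was lower in O than in I in every animal (14% of all genes), nor lower in S than in I (12.1%). Between O and S, no member kept 1 order in all 9 animals, whereas 3.56% of all genes were higher and 5% lower in O throughout.

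Spread between animals was larger for the members than for most genes of fat. The coefficient of variation (CV, the SD as a percentage of the mean) had a median over the 18 members of 40.2% in O, 31.1% in S and 45.4% in I. Over the 8432 genes it was 19.99%, 21.1% and 25.5%. The CV of 17 members in O, 16 in S and 18 in I was above the median of all genes, and 16, 10 and 18 were above the upper quartile. Restricting the genes to the 7940 within the members' range of mean fat level left the medians at 19.9%, 20.9% and 25.2%. That range kept most of the 8432 genes, so it does not match the members closely for level. The other 39 genes that passed the fold over muscle varied still more, with median CVs of 48.4% in O, 38.1% in S and 56.7% in I.

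Members differed widely in this respect. ENSBTAG00000011779 in S was the steadiest, at 136 to 184 CPM (median 159, CV 8.41%, n = 9), while it ranged from 92.9 to 246 CPM in O and from 32.9 to 123 CPM in I. ENSBTAG00000012164 had a CV of 15.8% in O (34.7 to 58.5 CPM) but 36.3% in S and 46.4% in I. The opposite case was ENSBTAG00000017020, at 6.08 to 48.8 CPM in O (median 31.6), 6.22 to 114 CPM in S (median 27.7) and 11.1 to 78.8 CPM in I (median 31.3), with CVs of 67.0%, 85.6% and 67.3%. Medians that close came from libraries that differed far more within each tissue. ENSBTAG00000004796 had its largest CV in I, 103%, where it ran from 7.38 to 102 CPM (median 17.9).

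Some of this spread was shared by the members in O and I, and little of it in S. Over pairs of members, the median correlation between libraries on the log2 scale was 0.41 in O, 0.087 in S and 0.35 in I. The correlation was above 0 in 68.6%, 58.8% and 71.2% of the pairs. To follow it, each level was set against the median of its tissue on the log2 scale, and the median of these deviations over the 18 members was taken for each library. In O the deviation ran from -0.29 to 0.62, in S from -0.17 to 0.29, in I from -0.92 to 0.49 and in muscle from -0.70 to 0.86. The 2 highest O libraries were those of replicates 1 and 7, both labelled female, with deviations of 0.49 and 0.62 and 14 of 18 members above the O median in each. Their summed levels were 12733 and 13066 CPM, with the other O libraries at 5895 to 10349 CPM. In I the lowest library was that of replicate 4, at -0.92 with 15 members below the median, followed by replicate 8 at -0.70 with 13 below.

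An animal that was high in 1 fat was not always high in the others. Replicate 4 had the lowest deviation in I and the highest in S (0.29). Replicate 3 was the lowest in O and S (-0.29 and -0.17) and at 0.43 in I. Replicate 7 was above the median in O (0.62), S (0.29) and I (0.05). In the plot of deviations by animal, no animal has the highest or the lowest deviation in all 3 of its fats.

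**Figure D2:**
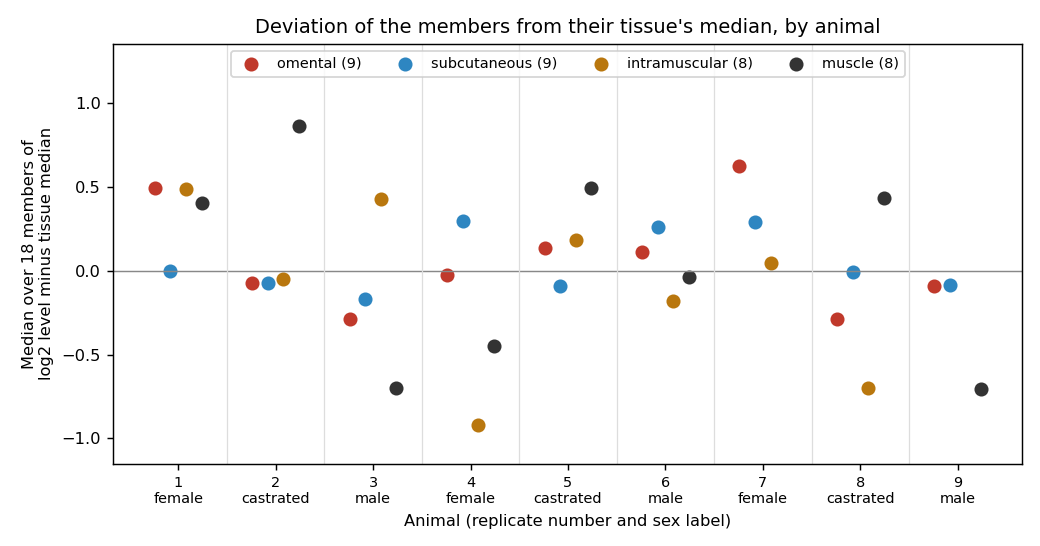
Median over the 18 members of the log2 level minus the tissue median (y axis), for each animal (x axis, replicate number and sex label), with 1 point per tissue. Values above 0 mark libraries in which the members were mostly higher than in the other animals; the points of 1 animal often lie on both sides of 0, as in replicate 4 with 0.29 in S and -0.92 in I.

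Some members, 3 of 18, went the other way in O. ENSBTAG00000010531 was at 12.8 CPM in the O library of replicate 1 and 11.5 CPM in that of replicate 7, its 2 lowest values, against 14.3 to 28.6 CPM in the other O libraries. ENSBTAG00000019665 was likewise at 8.71 and 12.3 CPM there, and at 17.6 to 45.8 CPM in the rest. ENSBTAG00000012237 was at 295 and 259 CPM there, again its 2 lowest values. So the 18 genes, chosen for the same order of tissues, did not vary as 1 unit between animals.

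Whether an animal effect was shared by its O and S libraries was tested with the animal term of an edgeR quasi-likelihood fit of depot plus animal on the 18 O and S libraries. At an FDR under 0.01, the study's threshold, 0 of 18 members were called, against 8.75% of 12966 genes. The member nearest to the threshold was ENSBTAG00000021444 (adjusted p = 0.01001, edgeR). It was at 24.9 CPM in O and 17.1 CPM in S of replicate 1, and at 37.2 and 29.9 CPM in replicate 7, its highest library in both depots, with 10.8 to 19.7 CPM in the other O and 12.8 to 23.4 CPM in the other S libraries. Without adjustment, 9 members had a p under 0.05, as did 50.1% of all genes.

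The count depended on the test. With an FDR under 0.05, 6 of 18 members were called (33.7% of all genes). The likelihood ratio test of edgeR called 9 at an FDR under 0.01 (37.8%), and DESeq2 also called 9 (29.9%). The quasi-likelihood test called 1 with RLE factors (8.65%) and 2 without the filter on low counts (8.07%). In 7 members the same animal had the highest level in O and in S, a count that was not taken over all genes. Over the 9 animals, the correlation between O and S on the log2 scale had a median of 0.375 in the 18 members. It was 0.584 in the 8432 genes at the level minimum.

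The sex labels were compared within each depot with the same test, since the rule did not use them. At an FDR under 0.01, 0 of 18 members were called in O (0.0372% of 13443 genes), in S (0.0377% of 13260), in I (0.0146% of 13687) and in O and S counts summed per animal (0.0352% of 14223). Unadjusted p-values of the quasi-likelihood test under 0.05 were found in 3, 4, 1 and 5 members. The shares of all genes with such a p were 3.88%, 7.76%, 4.08% and 5.78%. The likelihood ratio test called 1 member in S (0.271% of all genes) and 0 in O (0.171%), in I (0.0584%) and in the sums (0.218%). DESeq2 also called 1 member in S (0.302%) and 0 in O (0.179%), in I (0.0805%) and in the sums (0.204%). In the contrasts of pairs of labels from the quasi-likelihood fits of edgeR, 0 members were called as well, against at most 0.0372% of all genes in O, 0.0377% in S, 0.0292% in I and 0.0422% in the sums.

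That member was ENSBTAG00000004796. In S it was at 7.04, 20.9 and 9.49 CPM in the castrated males, at 32.9, 71.7 and 86.1 CPM in the females and at 39.6, 36.2 and 29.9 CPM in the males. All 3 castrated males lay below all others in this depot. The log2 fold change of castrated males over females was -2.30 ± 0.43 (SE), with an adjusted p of 0.372 in the quasi-likelihood test of edgeR over all genes. The adjusted p over the 3 labels was 0.541 with that test, 0.00160 with the likelihood ratio test of edgeR and 0.00130 with DESeq2. In O the castrated males were at 11.6, 43.3 and 20.4 CPM and the females at 27.4, 44.7 and 40.7 CPM, so the groups overlapped there.

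The differences between labels in O went with the 2 high female libraries. The median log2 difference over the 18 members was -0.49 for castrated males over females (14 members lower) and 0.49 for females over males (14 members higher), with all genes at -0.01 and 0.01. ENSBTAG00000024137 was at 316, 95.3 and 409 CPM in the O libraries of the females and at 74.0, 111 and 112 CPM in those of the males. The log2 difference of 1.47 ± 0.42 (SE) had an adjusted p of 0.998 in the quasi-likelihood test of edgeR, and the female of replicate 4 lay within the range of the males. In S the same gene was at 182, 150 and 183 CPM in females and at 110, 80.9 and 91.9 CPM in males, groups that did not overlap (adjusted p = 0.739, edgeR).

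The residual level in muscle was then read as a gauge of fat in each muscle library. For each member, the level in a muscle library was expressed as a percentage of the mean of its 3 fat medians, and the median over the 18 members was taken. It was 3.96% in replicate 1, 5.27% in replicate 2, 1.34% in replicate 3, 1.85% in replicate 4, 4.51% in replicate 5, 2.44% in replicate 6, 4.33% in replicate 8 and 0.964% in replicate 9. The median of the 8 libraries was 3.20%, or 3.96% without the muscle library labelled female replicate 4 and 2.44% without replicate 8. The rule itself holds the tissue medians of each member under 1 part in 16, so the level of the residual is set in part by the choice of genes.

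Members ranked the muscle libraries in partly similar ways. On the log2 scale, the correlation of a member with the median of the others was above 0 in all 18. It was above 0.5 in 11, and lowest in ENSBTAG00000046708 (0.043). Replicate 2 had 16 members above their muscle median, replicate 5 had 15, replicate 1 had 13 and replicate 8 had 12. By contrast, 17 members were below their median in replicate 9, and 15 each in replicates 3 and 4. With medians taken without replicate 4, 14, 13, 10 and 9 members were above them in replicates 2, 5, 1 and 8, and 15 below them in each of replicates 3 and 9. The highest muscle library of each member was replicate 2, 5, 8 or 1 in 6, 6, 4 and 2 members, and never replicate 3, 4, 6 or 9. The summed level of the members gave the same separation, with 216 to 295 CPM in replicates 1, 2, 5 and 8 and 68.2 to 155 CPM in replicates 3, 4, 6 and 9. These counts by library were not taken over all genes counted in muscle, so they are not set against a background.

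Single members gave quite different percentages in the same library. Between the lower and the upper quartile of the members, the percentage ran from 4.33 to 6.53% in replicate 2, from 2.13 to 8.40% in replicate 5, from 1.66 to 8.16% in replicate 8 and from 0 to 2.06% in replicate 9. Among the 6 members at 150 CPM or more, the range was 3.59 to 7.54% in replicate 2 and 0.316 to 5.81% in replicate 9. Single genes thus gave different residual levels for the same library, also among the members with the most reads. Which cells of the muscle the reads came from was not tested.

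**Figure D3:**
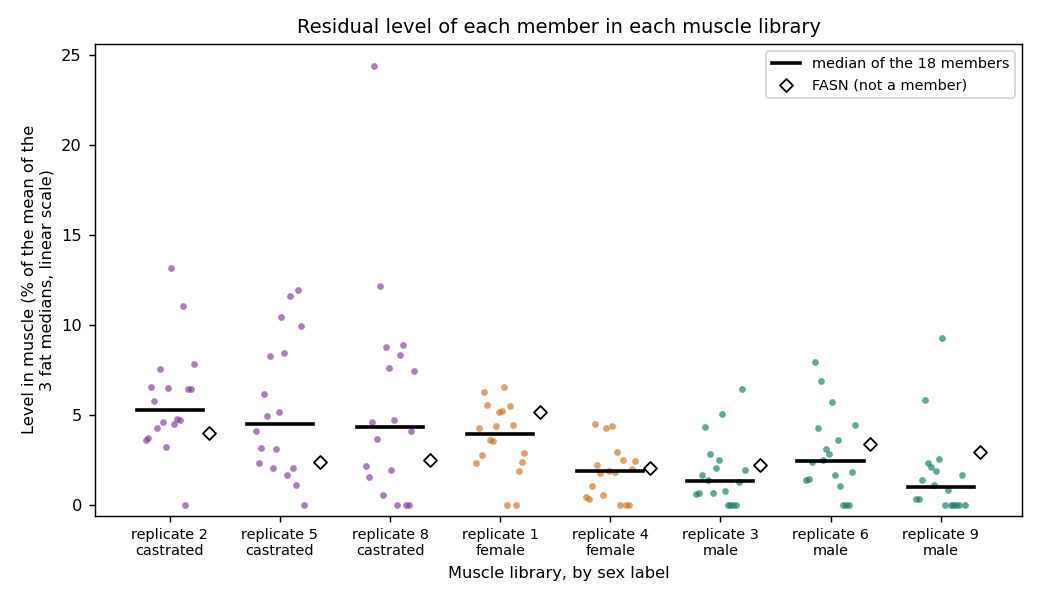
Level of each member in each muscle library as a percentage of the mean of its 3 fat medians (y axis, linear), with libraries ordered by sex label (x axis), a point per member, a black bar at the median of the 18 members and a diamond for FASN, which is no member. The bars of the 3 castrated males (4.33 to 5.27%) lie above those of the 3 males (0.964 to 2.44%), while the diamonds of these groups overlap; the highest point, 24.4% in replicate 8, is ENSBTAG00000012237.

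By sex label, the residual level was 4.33 to 5.27% in the 3 castrated male libraries, 0.964 to 2.44% in the 3 male ones, and 3.96 and 1.85% in those labelled female, the second being replicate 4. The ranges of the libraries labelled castrated male and male did not overlap. Replicate 4, with counts against its female label, was in neither group, and whether it came from a male or a castrated male could not be told. At 1.85% it lay below the highest male library, so counted as a castrated male it would have made the ranges overlap. As labelled, the ranges were also apart with RLE factors (4.15 to 5.33% and 0.951 to 2.46%) and without scaling factors (2.40 to 2.84% and 0.424 to 1.21%). Taken gene by gene, 8 of 18 members (44.4%) had all 3 castrated male libraries above all 3 male ones, as did 6.71% of 17463 genes counted in muscle. The reverse was found in 0 members, and in 7.91% of all genes. The 18 values of a library share that library, so they are not independent of each other. The 3 castrated male libraries were also those least like the other muscle libraries over all genes, with median correlations of 0.967 (replicate 8), 0.973 (replicate 5) and 0.9806 (replicate 2), where the others had 0.9811 to 0.984. The TMM factor of replicate 8 was 0.747, and those of the other muscle libraries 0.524 to 0.642. The part of these differences between libraries in the residual level was not tested.

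The difference between castrated males and males in muscle was tested with the quasi-likelihood test of edgeR, after these values had been seen. Of the 18 members, 12 passed the filter on low counts and 0 were called at an FDR under 0.01 (0.0166% of 12079 genes, and 0.00828% with the 3 labels tested together), with 7 at an unadjusted p under 0.05 (15.4% of all genes). The smallest adjusted p of a member was 0.173 (ENSBTAG00000010531). Its counts were few in muscle, 25 in the 8 libraries, with 3.12, 0.584 and 2.52 CPM in castrated males and 0 in the 3 males. It passed the filter through castrated male replicates 2 and 8 (11 and 7 counts), with 3 or fewer counts in the other libraries. ENSBTAG00000017020 passed through castrated male replicates 5 and 8 (12 and 7 counts), with 5 or fewer elsewhere. Passing was thus tied to the contrast, and the counts of members at an unadjusted p under 0.05, with or without replicate 4, are no support for a difference. For the highest member, ENSBTAG00000037526, the log2 difference was 2.10 ± 0.60 (SE, adjusted p = 0.205, edgeR), from 125, 142 and 74.8 CPM in castrated males and 21.5, 47.7 and 10.98 CPM in males. Without replicate 4, 13 members passed, 0 were called (0.0157% of 12713 genes), and 8 had an unadjusted p under 0.05 (13% of all genes). Other tests were not run on muscle.

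Genes outside the 18 gave a similar but not identical order of libraries. The other 39 genes at 16 times muscle had median percentages of 2.10, 2.62, 0.858, 0.663, 2.66, 2.25, 1.53 and 1.01 in replicates 1, 2, 3, 4, 5, 6, 8 and 9. Replicates 3, 4 and 9 were the lowest by them too, but the castrated males (1.53 to 2.66%) overlapped with the males (0.858 to 2.25%), and 6 of 39 (15.4%) had the 3 castrated males above the 3 males. FASN was at 5.16% of its mean fat level in replicate 1, 3.97% in replicate 2 and 2.06 to 3.36% in the others. It too overlapped between castrated males (2.38 to 3.97%) and males (2.22 to 3.36%).

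Setting each muscle library against the I library of the same animal changed its place. The median percentage was 6.73% in replicate 8, 6.60% in replicate 2, 4.58% in replicate 5, 4.29% in replicate 6, 4.14% in replicate 4, 3.64% in replicate 1 and 1.09% in replicate 3, with no I library for replicate 9. Replicate 4, low by the common fat level, was in the middle here, because its own I library was the lowest of the 8. Replicate 3 was the lowest of these 7 libraries on both scales, and replicates 8 and 2 were the highest here, against replicates 2 and 5 by the common fat level. Since the muscle library labelled female replicate 4 had counts against its label, its pairing with that I library is also in doubt.

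ENSBTAG00000012237 stood apart from the other members in 1 animal. Its O level was 1150 CPM in replicate 8 and 259 to 604 CPM in the other O libraries. In S, replicate 8 was at 527 CPM and the others at 261 to 492.9 CPM, a small lead. In I it was at 915 CPM against 348 to 639 CPM, and in muscle at 101 CPM against 17.8 to 32.6 CPM.

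Replicate 8 was thus the highest library in all 4 tissues, and this was so for no other member in any animal. The muscle level of replicate 8 was 24.4% of the mean fat level for this gene, but 11% of the I level of the same animal, where the other 6 pairs were at 3.56 to 7.43%. Most members were not high in the fats of this animal, since 14 of the 18 were below the O median in replicate 8 and 13 below the I median. Others were high in some of its tissues, as ENSBTAG00000010531, highest in replicate 8 in S (61.2 CPM) and I (37.5 CPM), and ENSBTAG00000047766, highest there in S (128 CPM) and muscle (4.31 CPM). Without the muscle library of replicate 8, the muscle median of the gene was 23.98 CPM in place of 24.7.

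**Figure D4:**
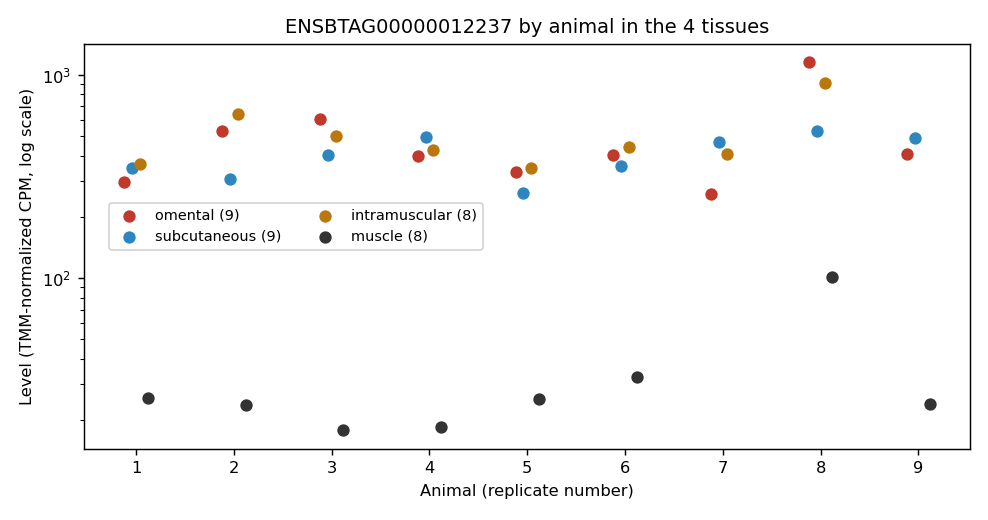
TMM-scaled CPM (y axis, log scale) of ENSBTAG00000012237 for each animal (x axis, replicate number), with 1 point per tissue. Replicate 8 has the highest point of each colour, 1150 CPM in O, 527 in S, 915 in I and 101 in muscle; muscle of replicate 7 and I of replicate 9 have no point.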

How the data were processed

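RNA-seq libraries of O, S and I fat and of muscle from 9 cattle were grouped by the tissue and sex of their labels, and libraries of 1 animal were linked by the number in their titles. The authors sequenced poly(A) RNA as paired-end reads on a HiSeq instrument, checked them with FastQC, mapped them to the bovine genome (bosTau6) with TopHat2 2.0.2 and obtained counts of Ensembl genes from HTSeq 0.5.3p3. The deposited values are raw counts per gene, one table per library, with 24596 genes and 5 lines for reads without a gene, which held 63.3 to 71.1% of all counts and were left out. The strand setting and the annotation release are not given in the sources used here, so overlapping genes may share reads.

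The members and lists were chosen with earlier results of these data known. CPM were scaled with TMM over 34 libraries (R 4.3.3, edgeR 4.0.16). Between tissues, the median log2 ratio of muscle to fat over 13775 genes was -0.14 with TMM, -0.15 with RLE factors and -1.00 without factors. Tests used filterByExpr with a count minimum of 10, glmQLFit and glmQLFTest over all genes, and an FDR under 0.01. Alternatives were the likelihood ratio test, DESeq2 1.42.0, RLE or no factors, no filter, other thresholds of the rule, each animal left out, and limma 3.58.1 (voom) with the animal as a block. The test in muscle, and values without muscle replicate 8 and for the other fat genes, were added after the data were seen. The tests in fat were checked on simulated counts, and that in muscle used the same code.

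Deviations from the group mean correlated over genes between O and S of the same animal (r = 0.264 to 0.739 for 9 animals, median 0.413). Between different animals, r was -0.399 to 0.381 (median -0.034). The lower quartile within animals, 0.382, was above the highest value between animals, but the ranges overlapped. The numbers thus pair the O and S libraries as a set, but not with certainty for each animal. The pairing of I and muscle libraries was not tested. Between libraries of a tissue, chi-square over degrees of freedom was 12.7 or more, so no library was taken as a copy of another. No source used here states how many pieces of tissue went into a library.

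The named members are the 5 highest in fat, the extremes in muscle share and in spread between animals, those near a test's threshold, and the genes next to each threshold of the rule. ENSBTAG00000012237, ENSBTAG00000010531 and ENSBTAG00000019665 were also described for values already seen. Of 24596 identifiers, 0 matched the reference table (RefSeq) and 31 were named through the study's qRT-PCR list, so gene lists by symbol, cell type markers, coordinates and sequences were not used here.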

Additional observations from a re-analysis of the deposited data

Results flagged for a closer look

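By Dixon's criterion, 11 of 77 sets of libraries held 1 library far above the others. The sets were the 18 members in 4 tissues, the summed level in each tissue and the residual level in muscle. For normal values in independent sets, about 1 in 20, or 3.85, would be flagged. CPM need not be normal and these sets share libraries, so 3.85 is no firm expectation here. ENSBTAG00000012237 was at 1150 CPM in O and at 101 CPM in muscle of replicate 8, with the next libraries at 604 and 32.6 CPM. ENSBTAG00000024137 was at 10.8 CPM in muscle of the same animal, with 30 counts, and the next library was at 5.41 CPM. In O of replicate 7, ENSBTAG00000000442 was at 1377 CPM and ENSBTAG00000047766 at 192 CPM (next 866 and 109 CPM). In O of replicate 9, ENSBTAG00000012164 was at 58.5 CPM and ENSBTAG00000019665 at 45.8 CPM (next 46.6 and 26.8 CPM).

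In I of replicate 5, ENSBTAG00000037526 was at 6513 CPM and ENSBTAG00000017020 at 78.8 CPM (next 3642 and 35.2 CPM). The latter gene was also at 114 CPM in S of replicate 4 (next 58.8 CPM). ENSBTAG00000004796 was at 0.292 CPM in muscle of replicate 5, which is 1 count, with 0 counts in the 7 other muscle libraries. All 11 libraries were the highest of their set.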

How the results depend on the processing

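The number of members followed the thresholds and the scaling. In place of 18, there were 63 at 8 times muscle and 6 at 32 times, 6 with fats less than 1.5-fold apart and 35 at 3-fold, 11 with means in place of medians, and 49 without scaling factors, of which 11 were among the 18. RLE factors gave 18 as well. Leaving out 1 animal gave 9 to 21 members, the lowest without replicate 3 (9, of which 8 were among the 18), and muscle without replicate 4 gave 14, of which 13 were. The residual level in muscle was 1.02% over the members at least 32 times muscle and 2.34 to 3.86% with 1 animal left out. Without scaling factors it was 1.63%.

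For sex in S, the likelihood ratio test called 1 member (36 of 13260 genes) and DESeq2 1 (40 of 13252), and every other count of members called for sex was 0 under the alternatives run, also with the animal as a replicate block (0 members and 6 genes), which changed no call of a member. For the animal effect over O and S, in place of 0 members, 9 were called by the likelihood ratio test, 9 by DESeq2, 1 with RLE factors (1122 of 12966 genes), 2 without the filter (1558 of 19310) and 6 at an FDR under 0.05 (4365 of 12966). Leaving out 1 animal gave 0 to 2 members, with 2 without replicate 3 and 1 each without replicates 1, 7, 8 and 9. It gave 93 to 1582 genes in place of 1134, the lowest without replicate 6. The 3 fats of 8 animals gave 0. In muscle, members with few counts limit the percentages.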
